A study of Mus musculus with 24 samples.

Results

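The subject is a set of 34 genes that mark Kupffer cells and other macrophages, read in the livers of mice on 3 diets. Members were chosen by name: every probe set of the array whose platform annotation lists exactly 1 gene symbol, with that symbol on the list, was taken. All 34 genes were found, with 57 of the 45037 probe sets tested. Of the genes, 21 had 1 probe set, and the most was 5 for Laptm5. Expression was measured in liver RNA of 18 male C57BL6J mice, 1 Affymetrix 3' array per mouse. The LF group (n = 6; mice 1, 2, 3, 4, 5 and 8) ate a low-fat diet, the HF group (n = 6; mice 1, 2, 3, 4, 5 and 8) a 45% high-fat diet, and the HF+P group (n = 6; mice 1, 2, 3, 4, 7 and 8) that high-fat diet with 5% powder of propagules, the small aerial tubers of Japanese yam. Feeding lasted 4 weeks after a low-fat run-in shared by all groups, and the mice were fasted for 16 h before dissection. The age of the mice is not given in the sources used here, and neither is whether mice shared a cage or litter. The HF arrays were processed once with LF and once more with HF+P, so each comparison has a value set of its own and the comparisons share the same 6 HF mice.

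Kupffer cells are the resident macrophages of the liver. They sit inside the sinusoids, hold on to the vessel wall, and clear bacteria, dying cells, old red cells and modified lipoproteins from portal blood. They are maintained by signalling through the receptor Csf1r and by the transcription factor PU.1, and express a set of genes, Clec4f, Vsig4 and Timd4 among them, that macrophages of other organs largely lack. When Kupffer cells die, monocytes that carry the chemokine receptor Ccr2 enter and take over the niche, and in fatty liver macrophages that express Trem2 and Gpnmb appear around lipid-laden hepatocytes. In whole liver the signal of such genes depends on how many macrophages are present and on how much of each RNA a cell holds, and the arrays cannot tell fewer cells from less RNA per cell.

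The deposited values lie on what is taken to be a log2 scale, with a column minimum of 5.36 and a column maximum of 15, but the arrays differ from each other by very little. The pooled within-group SD had a median of 4.06e-06 over all probe sets and 0.000294 over the members for the LF and HF arrays, and 49 of the 57 member probe sets lay above the median SD of all. Differences on this scale cannot be read as folds. Sizes are given as standardized differences, meaning that the difference of the group means is divided by the pooled SD, with the Hedges correction, with a 95% interval. The value of a mouse is its deviation from the mean of the reference group in pooled SDs. Albumin and apolipoprotein A-I, products of hepatocytes, had mean deposited values of 14.9 and 14.8. The beta-actin control read 0.597 higher at the 3' than at the 5' end in every array of LF and HF.

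PU.1, encoded by Spi1, binds sequences built around a GAGGAA core in macrophage genes, so the 250 bases before the transcription start were searched for GAGGAA on both strands (TTCCTC on the other strand). RefSeq promoters of build GRCm38.p6 were available for 26 of the 34 members, with 28 entries. The core was present in 14 of the 28 (50%), against 23.3% of all 32851 promoters. The longer word AGGAAGT, which shares the letters AGGAA with the first, was present in 7 (25%), against 7.69% of all. A match of letters is a description and not a binding site. Promoters are printed for 4 resident or complement genes that hold a match, and for Clec4f. Clec4f had the largest difference of HF over LF among the resident markers. The choice did not follow a ranking by shared variation. Timd4 ran more closely with the other members than Vsig4 (correlations of 0.884 and 0.847 in LF and HF). Timd4 is not among the members with a match and is not printed. A link between the match and shared variation was not tested. Capitals mark GAGGAA or its reverse complement, each sequence runs 5' to 3' on the strand of the gene and ends at the base before the start, and the Clec4f window holds no match.
C1qb, minus strand, chr4:136886201-136886450: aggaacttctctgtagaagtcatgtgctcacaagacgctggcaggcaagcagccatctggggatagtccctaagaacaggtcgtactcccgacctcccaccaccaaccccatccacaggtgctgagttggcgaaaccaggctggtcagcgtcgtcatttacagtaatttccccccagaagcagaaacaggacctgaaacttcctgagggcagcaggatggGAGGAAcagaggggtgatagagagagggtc
C1qc, minus strand, chr4:136892915-136893164: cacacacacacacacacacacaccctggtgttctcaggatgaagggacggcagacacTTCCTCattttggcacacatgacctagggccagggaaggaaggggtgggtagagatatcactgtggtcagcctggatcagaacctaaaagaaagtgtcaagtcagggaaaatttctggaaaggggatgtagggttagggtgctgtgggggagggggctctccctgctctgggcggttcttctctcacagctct
Cd5l, plus strand, chr3:87357631-87357880: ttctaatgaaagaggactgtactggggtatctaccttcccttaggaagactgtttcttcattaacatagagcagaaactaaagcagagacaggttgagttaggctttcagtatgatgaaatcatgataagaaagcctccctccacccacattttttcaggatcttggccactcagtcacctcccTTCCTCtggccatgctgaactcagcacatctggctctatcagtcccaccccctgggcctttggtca
Vsig4, minus strand, chrX:96293439-96293688: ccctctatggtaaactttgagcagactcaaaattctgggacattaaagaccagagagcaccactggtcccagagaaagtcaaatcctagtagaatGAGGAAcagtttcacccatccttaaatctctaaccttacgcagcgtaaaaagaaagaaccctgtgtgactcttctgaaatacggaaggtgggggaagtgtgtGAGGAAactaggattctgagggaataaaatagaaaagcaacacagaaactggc
Clec4f, minus strand, chr6:83656117-83656366: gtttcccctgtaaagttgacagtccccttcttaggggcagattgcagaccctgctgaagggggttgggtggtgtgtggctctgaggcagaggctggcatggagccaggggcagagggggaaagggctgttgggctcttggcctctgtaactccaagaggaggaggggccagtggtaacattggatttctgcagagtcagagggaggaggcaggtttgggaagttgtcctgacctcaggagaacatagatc
C1qa, C1qb and C1qc lie side by side in the annotation with no other protein-coding gene between them. Vsig4 holds 2 matches, and the others with a match hold 1.

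**Figure D1:**
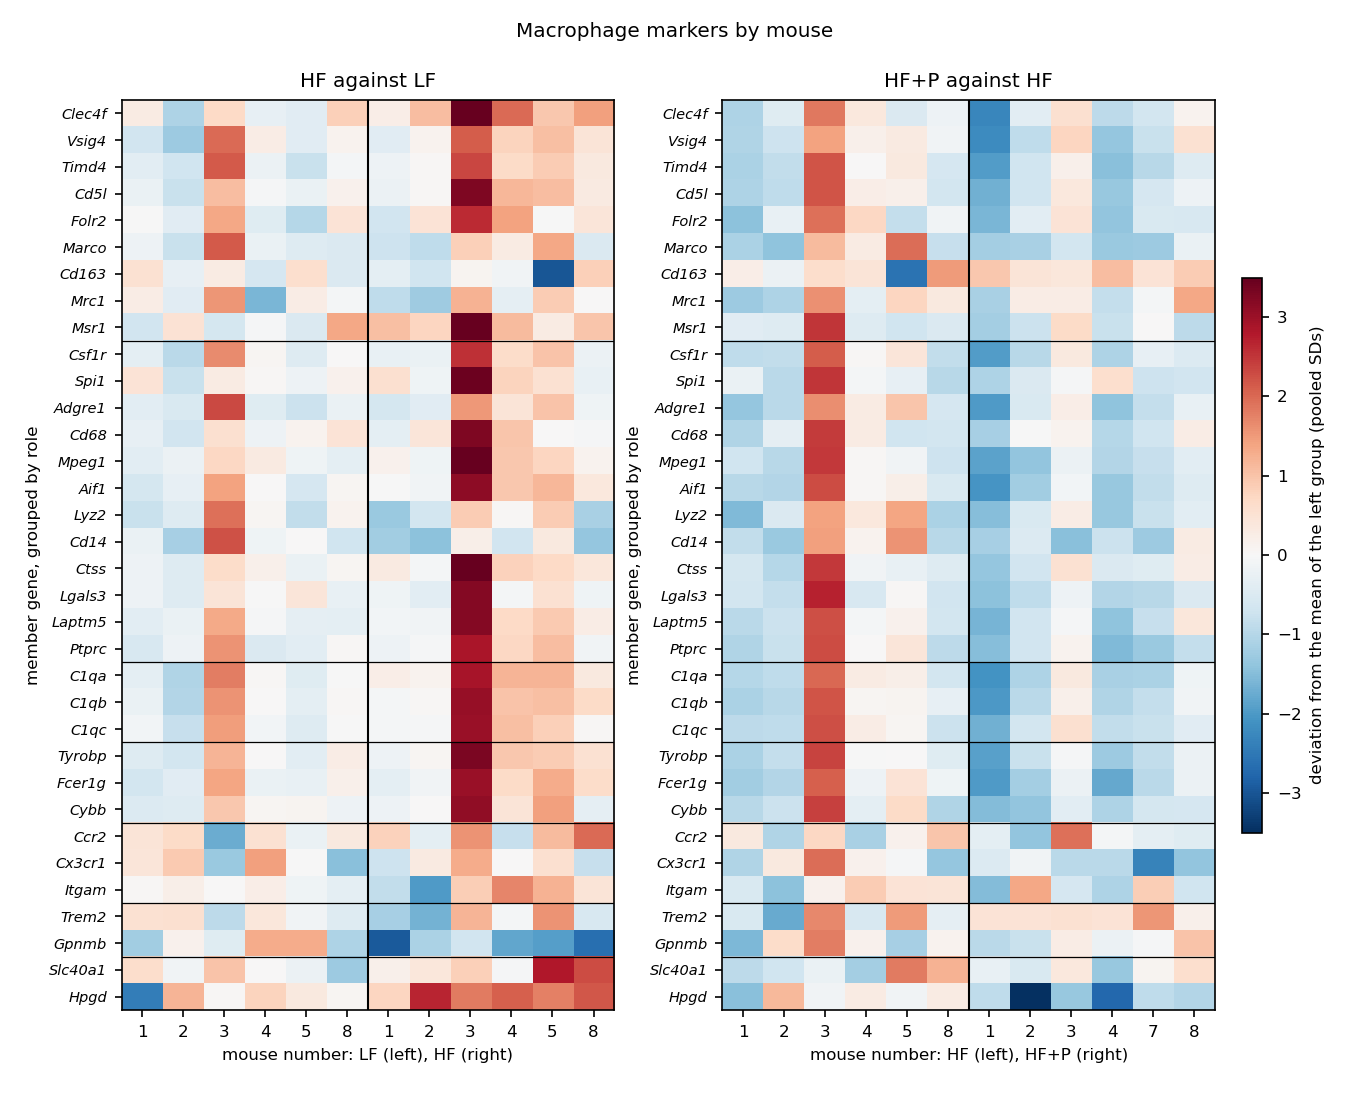
Deviation of every mouse from the mean of the left-hand group, in pooled SDs, for the brightest probe set of each of the 34 member genes, grouped by role; left, LF and HF mice, right, HF and HF+P mice. HF mouse 3 forms a dark column in most rows, while Hpgd, Slc40a1, Gpnmb and Cd163 do not follow it.

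HF was first set against LF, to see what high-fat feeding did to the liver. Most macrophage markers had a higher mean in HF than in LF livers, typically by less than 1 pooled SD: 48 of the 57 member probe sets lay above 0 and 9 below, with a median standardized difference of 0.720, against 50.8% above 0 and a median of 0.0149 over all probe sets. None of the 57 passed the threshold of an adjusted p below 0.05 (limma, Benjamini-Hochberg over 45037 probe sets), which 0.671% of all probe sets passed (0.269% higher and 0.402% lower). The lowest adjusted p of a member was 0.168. At an unadjusted limma p below 0.05, 5 of the 57 member probe sets were higher and 1 lower, against 5.69% and 7.25% of all probe sets, 12.9% in all. By gene, read on the brightest probe set, 28 of 34 lay above 0. The other scalings move nearly the whole array down: after quantile normalisation 15.3% of all probe sets lay above 0 (median -0.73), and after centring each array on its median 2.87% (median -2.72), with 42047 of 45037 called lower. Among the members 31 then lay above 0 and 25 below (median 0.106), and 35 above and 22 below (median 0.449). A sign that turns under these scalings is to be read against those medians. The mean column medians of HF and LF differed by 6.45e-05, which exceeded the difference of 18 member probe sets and of 94.7% of all. Those 18 include the brightest probe sets of Gpnmb, Trem2, Ccr2, Cx3cr1, Itgam, Mrc1 and Spi1. In no member were all HF mice above or all below the LF mice, a state reached by 1.57% of all probe sets.

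Among the resident identity genes and scavenger receptors, 10 of 13 probe sets lay above 0 (median 0.653; 7 of 13 and 0.0454 after quantile normalisation). Clec4f, a C-type lectin found almost only on Kupffer cells, ran from -1.09 to 0.83 in LF mice and from 0.22 to 3.73 in HF mice, with an HF median of 1.25. Of the HF mice, 5 exceeded every LF mouse, and the groups overlapped through mouse 1. Its standardized difference was 1.44 (95% interval 0.198 to 2.63; adjusted p = 0.255; exact permutation p = 0.0130, where 0.00216 is the smallest possible). It was 0.383 after quantile normalisation and 1.18 after centring. Though smaller, it passed as higher after centring (limma, adjusted p = 0.0363), where 42369 of 45037 probe sets passed and 322 of them higher. With so many passing the adjustment hardly raises a p-value, and the pass is not added support. Msr1, the scavenger receptor for modified lipoproteins, ran from -0.68 to 1.36 around a median of -0.28 in LF and from 0.28 to 3.59 around 1.02 in HF. HF mouse 3 alone was above all LF mice. The difference was 1.2 (0.0065 to 2.34; adjusted p = 0.359), and the other 3 Msr1 probe sets gave 0.802, 1.08 and 1.35.

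Cd5l, a protein that macrophages secrete and that promotes their survival, ran from -0.78 to 1.09 (median -0.12) in LF and from -0.20 to 3.28 (median 0.69) in HF, with a difference of 0.869 (-0.260 to 1.96; adjusted p = 0.530). Vsig4, the complement receptor that captures bacteria from blood, ran from -1.28 to 1.97 (median -0.14) in LF and from -0.41 to 2.12 (median 0.62) in HF. For Vsig4 the difference was 0.630 (-0.464 to 1.70; adjusted p = 0.671) and it turned to -0.389 after quantile normalisation. Timd4, a receptor for phosphatidylserine on dying cells that marks long-lived resident cells, ran from -0.79 to 2.14 (median -0.29) in LF and from -0.18 to 2.34 (median 0.50) in HF. In all 3 genes mouse 3 was the highest of either group and the groups overlapped widely. The Timd4 difference was 0.630 (-0.464 to 1.69; adjusted p = 0.671). Without LF mouse 3 it was 1.44 for Timd4 and 1.28 for Vsig4, and without HF mouse 3 it was 0.371 and 0.395; without LF mouse 2 Vsig4 gave 0.412. Folr2, a folate receptor of resident macrophages, gave 0.653. Marco, a bacterial scavenger receptor, lay close to 0 on both probe sets (0.0529 and -0.0065), with LF from -0.79 to 2.16 and HF from -0.89 to 1.36. Mouse 5, not mouse 3, was the highest HF mouse. Cd163, the haemoglobin scavenger receptor, had a difference of -0.495, with HF mouse 5 at -3 and the other HF mice from -0.69 to 0.83, and the mannose receptor Mrc1 one of -0.0523.

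The pan-macrophage genes comprised 19 probe sets, of which 16 lay above 0 (median 0.669; 12 of 19 after either quantile normalisation or centring). Csf1r, the receptor for the growth factors Csf1 and Il34, ran from -0.94 to 1.65 (median -0.16) in LF and from -0.25 to 2.56 (median 0.21) in HF. HF mouse 3 was the only one above the LF range. Its 3 probe sets gave differences of 0.537, 0.787 and 0.854, with an adjusted p of 0.730 for the brightest, which gave 0.966 without LF mouse 3 and 0.222 without HF mouse 3. Adgre1, a surface receptor long used to recognise mouse macrophages, ran from -0.76 to 2.30 (median -0.40) in LF and from -0.61 to 1.51 (median 0.16) in HF. Here LF mouse 3 was the highest of all 12 mice. The difference was 0.279 (-0.779 to 1.32; adjusted p = 0.883), and it turned to -0.594 after quantile normalisation. It was 1.09 without LF mouse 3, 0.0580 without HF mouse 3, and between 0.135 and 0.444 without any other single mouse. Aif1, an actin-binding protein of macrophages, ran from -0.61 to 1.41 (median -0.14) in LF and from -0.13 to 3.13 (median 0.64) in HF, a difference of 0.837 (-0.287 to 1.92; adjusted p = 0.549). Spi1 itself gave 0.756, the pore-forming protein Mpeg1 0.817, the lysosomal protease Ctss 0.895, the lysosomal glycoprotein Cd68 0.665, galectin-3 (Lgals3) 0.465 and the leukocyte phosphatase Ptprc 0.669 on its brighter probe set. Lyz2, macrophage lysozyme, and Cd14, the co-receptor for bacterial lipopolysaccharide, lay below 0 at -0.191 and -0.639.

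The 3 chains of complement C1q, the initiator of the classical pathway, are made in the liver mainly by macrophages, and all 5 of their probe sets lay above 0 (median 0.920), also after quantile normalisation (0.795) and centring (0.838). C1qa ran from -1.06 to 1.79 (median -0.18) in LF and from 0.13 to 2.89 (median 0.76) in HF. Only HF mouse 3 exceeded the LF range, and the lowest HF mouse stood above the LF median. The C1qa difference was 0.920 (-0.217 to 2.02; adjusted p = 0.501) and 1.495 without LF mouse 3, that of C1qc 0.741, and those of C1qb 0.883, 0.929 and 1.06. The adaptors Tyrobp and Fcer1g, which carry the signals of activating receptors, and Cybb, the catalytic subunit of the phagocyte oxidase, gave 5 of 5 above 0 (median 0.798), and 4 of 5 after quantile normalisation. Fcer1g ran from -0.63 to 1.37 (median -0.25) in LF and from -0.34 to 3.03 (median 0.66) in HF, a difference of 0.798 (-0.320 to 1.88; adjusted p = 0.570) that turned to -1.62 after quantile normalisation. Tyrobp gave 0.855 and the 3 Cybb probe sets 0.694, 0.720 and 0.818.

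Receptors of monocyte-derived cells were less uniform among themselves, with 6 of 7 probe sets above 0 and a median of 0.335, which turned to -0.911 after quantile normalisation and -2.52 after centring. Ccr2, the chemokine receptor that brings monocytes out of the marrow, has 4 probe sets. The brightest ran from -1.75 to 0.66 (median 0.39) in LF and from -0.80 to 1.98 (median 0.96) in HF, with 4 HF mice above all LF mice and a difference of 0.666 (-0.432 to 1.73; adjusted p = 0.661). Another gave 1.22 (0.0265 to 2.37; adjusted p = 0.348) with 5 HF mice above all LF mice. The Ccr2 probe sets did not order the mice alike: HF mouse 8 was highest on the brightest and HF mouse 3 on the other 3. Cx3cr1, the fractalkine receptor, ran from -1.45 to 1.43 (median 0.20) in LF and from -0.81 to 1.3 (median 0.16) in HF, with differences of 0.0988 and -0.603 on its 2 probe sets. After quantile normalisation the brightest probe sets of Ccr2 and Cx3cr1 stood at -1.18 and -1.37, and after centring at -2.67 and -2.66, which is close to the median of all probe sets under centring (-2.72). Itgam, the integrin subunit CD11b, gave 0.218.

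The lipid-associated genes split by probe set, 2 of 4 above 0 with a median of 0.169; all 4 lay below 0 after quantile normalisation and after centring. Gpnmb, a transmembrane glycoprotein of lipid-loaded macrophages, had the largest negative standardized difference of the members. Its brighter probe set ran from -1.21 to 1.29 (median -0.14) in LF and from -2.95 to -0.66 (median -1.87) in HF, and 4 HF mice lay below every LF mouse. The difference was -1.71 (-2.96 to -0.402; unadjusted p = 0.00707, adjusted p = 0.173; exact permutation p = 0.0108). The other Gpnmb probe set gave 0.625 (-0.468 to 1.69), with HF mouse 3 the highest, so the gene has no single direction here. On the deposited scale the brighter Gpnmb probe set had a mean of 6.44, below the lowest column median of 6.90. Its deposited difference of -2.9e-05 was smaller than the shift of 6.45e-05 between the column medians of the groups. Trem2, the lipid receptor of such cells, ran from -0.92 to 0.56 (median 0.14) in LF and from -1.66 to 1.56 (median -0.31) in HF on its brighter probe set. The HF mice spread on both sides of the LF range, with differences of -0.108 and 0.445 on the 2 probe sets (adjusted p = 0.977 and 0.789). The deposited differences of Trem2, -5.65e-08 and 3.09e-06, were also smaller than that shift. After centring Trem2 stood at -2.75 and Gpnmb at -3.26, beside a median of -2.72 over all probe sets.

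Iron export and prostaglandin breakdown are represented by Slc40a1 and Hpgd, with 4 of 4 probe sets above 0 and a median of 0.954; after quantile normalisation 1 of 4 lay above 0, 2 below, and the brighter Hpgd probe set had the same value in every array. Hpgd, the enzyme that inactivates prostaglandin E2, had the largest positive difference of all members. Its brighter probe set ran from -2.41 to 1.19 (median 0.20) in LF and from 0.75 to 2.67 (median 1.94) in HF. All HF mice except mouse 1 lay above every LF mouse. The difference was 1.73 (0.419 to 2.99; unadjusted p = 0.00653, adjusted p = 0.168; exact permutation p = 0.00649), and the dimmer probe set gave 0.630 (-0.464 to 1.70). After centring the brighter Hpgd probe set fell to 1.3, yet passed as higher (limma, adjusted p = 0.0232). In that setting 42369 of 45037 probe sets passed, 322 of them higher, so the adjustment hardly raises a p-value. The pass is not added support. Slc40a1 encodes ferroportin, through which Kupffer cells return the iron of digested red cells to plasma. It ran from -1.28 to 0.99 (median -0.05) in LF and from -0.03 to 2.79 (median 0.62) in HF, highest in HF mice 5 and 8. The difference was 0.998 (-0.153 to 2.11; adjusted p = 0.459), it turned to -0.267 after quantile normalisation, and the other probe set gave 0.911.

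**Figure D2:**
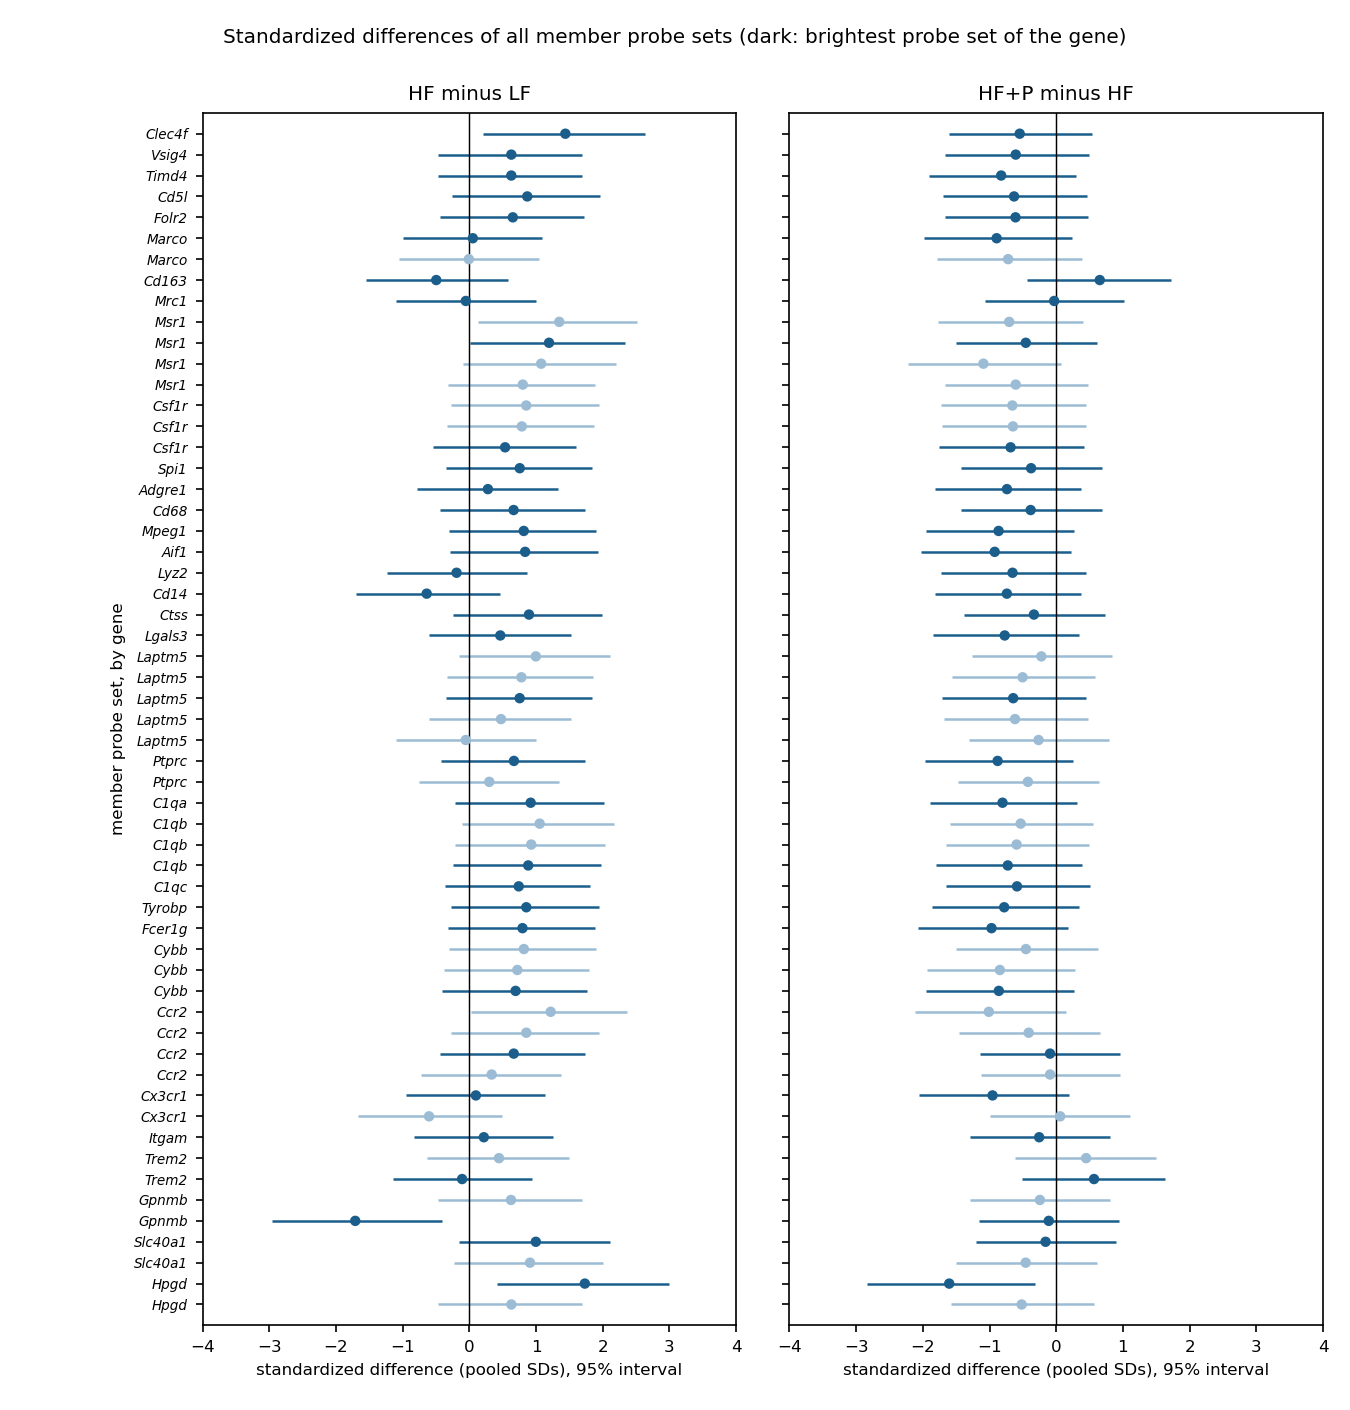
Standardized difference in pooled SDs with its 95% interval for each of the 57 member probe sets, HF minus LF on the left and HF+P minus HF on the right; dark points are the brightest probe set of a gene. Most points lie right of 0 on the left and left of 0 on the right, and nearly all intervals cross 0; the exceptions with an unadjusted p below 0.05 include Hpgd in both panels. The signs are those of the deposited scale; quantile normalisation and centring turn those of part of the members.

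HF+P was set against HF to read out the propagule powder on a high-fat background. The means of most macrophage markers were lower in HF+P livers, again typically by less than 1 pooled SD. Of the 57 member probe sets, 53 lay below 0 and 4 above, with a median standardized difference of -0.607, against 50.7% below 0 and a median of -0.00952 over all probe sets. None of the 57 passed the threshold, which 0.00222% of all probe sets passed, that is 1 of 45037. The lowest adjusted p of a member was 0.583. At an unadjusted limma p below 0.05, 1 member probe set was lower, of Hpgd, and 0 were higher, against 3.2% and 3.74% of all probe sets, 6.94% in all. Quantile normalisation left 43 below 0 and 12 above (median -0.492), beside 51.2% of all above 0. Centring left 45 below and 12 above (median -0.582), beside 86.2% of all above 0. In no member were the groups apart, against 0.355% of all probe sets. Because the HF mice are the reference of one comparison and the tested group of the other, a high HF value moves both, and the opposite signs of the comparisons are not separate observations.

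For the resident genes, 12 of 13 probe sets lay below 0 (median -0.611). Clec4f ran from -1.07 to 1.84 (median -0.31) in HF and from -2.29 to 0.56 (median -0.50) in HF+P, a difference of -0.547 (-1.61 to 0.537; adjusted p = 0.869) that turned to 0.158 after quantile normalisation. Vsig4 ran from -1.06 to 1.41 (median 0.03) in HF and from -2.19 to 0.74 (median -0.82) in HF+P, a difference of -0.607 (adjusted p = 0.853) that turned to 0.0774. Timd4 ran from -1.10 to 2.19 (median -0.28) in HF and from -1.95 to 0.17 (median -0.84) in HF+P, a difference of -0.825 (-1.91 to 0.297; adjusted p = 0.796). In these genes the lowest mouse was HF+P mouse 1, and HF+P mouse 3 the highest of its group. Without HF mouse 3 the difference was -0.253 for Clec4f and -0.374 for Vsig4, without HF+P mouse 1 -0.271 and -0.360, and without HF+P mouse 3 -0.928 for Vsig4. Cd5l gave -0.632 (adjusted p = 0.848; -0.328 without HF mouse 3), with HF from -1.07 to 2.19 (median -0.22) and HF+P from -1.67 to 0.37 (median -0.65). Marco ran from -1.42 to 1.95 (median -0.26) in HF and from -1.31 to -0.24 (median -1.17) in HF+P, a difference of -0.893 (-1.99 to 0.240; adjusted p = 0.777). Its HF+P mice were close together, within the HF range. Msr1 was uneven, with -0.456 on the brightest probe set and -1.09 on another (-2.22 to 0.0770; adjusted p = 0.727; exact permutation p = 0.0281), where 5 HF+P mice were lower than every HF mouse. On the brightest, Msr1 ran from -0.70 to 2.50 (median -0.44) in HF and from -1.19 to 0.68 (median -0.77) in HF+P. Cd163 was above 0 at 0.653, with HF mouse 5 lowest at -2.58.

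All 19 pan-macrophage probe sets lay below 0 (median -0.649), as did 15 after quantile normalisation and 15 after centring. Csf1r ran from -0.88 to 2.12 (median -0.40) in HF and from -1.95 to 0.33 (median -0.72) in HF+P, a difference of -0.684 (-1.75 to 0.417; adjusted p = 0.834), and -0.405 without HF mouse 3. Adgre1 ran from -1.35 to 1.64 (median -0.15) in HF and from -1.99 to 0.23 (median -0.68) in HF+P, a difference of -0.738 (adjusted p = 0.818). Aif1 ran from -1.03 to 2.29 (median -0.25) in HF and from -2.07 to -0.10 (median -1.03) in HF+P, and 3 HF+P mice were lower than every HF mouse. Its difference was -0.922 (-2.02 to 0.216; adjusted p = 0.773), the largest of this role. The other genes of the role lay between -0.879 for the brighter Ptprc probe set and -0.334 for Ctss, apart from dimmer probe sets of Laptm5. The C1q chains gave 5 of 5 below 0 (median -0.594). C1qa ran from -0.99 to 2.01 (median -0.22) in HF and from -2.09 to 0.35 (median -1.10) in HF+P, with 4 HF+P mice below every HF mouse and a difference of -0.805 (-1.89 to 0.314; adjusted p = 0.801). The adaptors and the oxidase gave 5 of 5 below 0 and the lowest median of the roles, -0.845; both scalings kept all 5 below 0. Fcer1g ran from -1.21 to 2.08 (median -0.16) in HF and from -1.99 to -0.20 (median -1.06) in HF+P, a difference of -0.970 (-2.08 to 0.176; adjusted p = 0.761).

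Monocyte-associated receptors had a median of -0.255 over 7 probe sets, which was -0.304 after quantile normalisation and -0.00164 after centring. Ccr2 ran from -1.14 to 0.96 (median 0.25) in HF and from -1.37 to 1.94 (median -0.34) in HF+P on its brightest probe set, where HF+P mouse 3 was the highest of all. The difference was -0.0923 (adjusted p = 0.987), turning to 0.558 after quantile normalisation and 0.350 after centring. Cx3cr1 ran from -1.35 to 1.96 (median 0.06) in HF and from -2.35 to -0.11 (median -0.94) in HF+P, a difference of -0.955 (-2.06 to 0.189; adjusted p = 0.766) that turned to 0.101 after quantile normalisation, while its other probe set gave 0.0600. Lipid-associated genes were the one role with a median above 0, 0.168. Trem2 ran from -1.76 to 1.68 (median -0.43) in HF and from 0.18 to 1.54 (median 0.49) in HF+P, and gave 0.567 and 0.448 on its 2 probe sets (adjusted p = 0.913 and 0.895). Gpnmb ran from -1.57 to 1.80 (median 0.14) in HF and from -0.95 to 0.99 (median -0.12) in HF+P, with a difference of -0.111 (adjusted p = 0.991) that turned to 0.620 after centring. The mean column medians of HF+P and HF differed by -4.09e-06. In size this exceeded the deposited difference of 10 member probe sets and of 71.8% of all probe sets. Among them were the brightest of Trem2 (3.6e-07), Gpnmb (-6.4e-08) and Ccr2 (-4.9e-07). The dimmer probe sets of Trem2 (5.7e-06) and Gpnmb (-6.7e-06) differed by more than the shift. The iron and prostaglandin genes gave 4 of 4 below 0 (median -0.488), and 2 of 4 after quantile normalisation (0.159). Hpgd ran from -1.47 to 1.13 (median 0.09) in HF and from -3.54 to -0.89 (median -1.18) in HF+P, and only HF+P mice 2 and 4 lay below every HF mouse. Its difference was -1.60 (-2.83 to -0.323; unadjusted p = 0.00998, adjusted p = 0.583; exact permutation p = 0.0108), and after quantile normalisation all arrays but 1 are tied. Slc40a1 ran from -1.18 to 1.82 (median -0.47) in HF and from -1.32 to 0.60 (median -0.08) in HF+P, a difference of -0.160 (adjusted p = 0.975) that turned to 0.637.

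**Figure D3:**
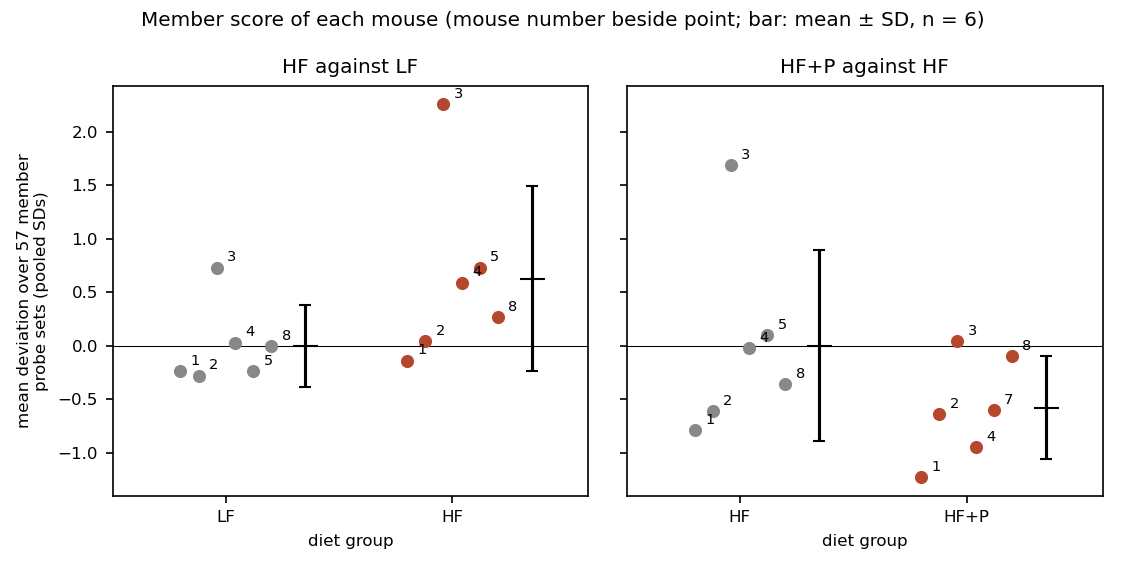
Mean deviation over the 57 member probe sets for each mouse, in pooled SDs, with the mouse number beside each point and the mean ± SD of each group (n = 6). HF mouse 3 lies at 2.26 in the left panel and 1.69 in the right, away from the other HF mice.

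The mean over the 57 probe sets gave each mouse a single score. LF mice ran from -0.28 to 0.73, highest in mouse 3. HF mice ran from -0.14 to 2.26: mouse 3 stood at 2.26, mice 4 and 5 at 0.59 and 0.73, and mice 1, 2 and 8 at -0.14, 0.04 and 0.27. The difference of the group means was 0.625 and fell to 0.298 without HF mouse 3. In the set with HF+P, HF mice ran from -0.79 to 1.69 and HF+P mice from -1.23 to 0.04, with HF+P mouse 1 lowest and mouse 3 highest. There the difference of -0.578 became -0.240 without HF mouse 3. Without that mouse the median standardized difference of the probe sets was 0.501 in the first comparison and -0.344 in the second, with 45 of 57 above 0 and 42 of 57 below 0. The animals numbered 3 were high in every group: mouse 3 was the highest of its group in 34 of 57 probe sets in LF, 42 in HF and 32 in HF+P, against 15.6%, 18.4% and 16.6% of all probe sets. With mouse 3 of both groups left out, an alternative chosen after the data were seen, the medians were 0.928 and -0.622, and still 0 members passed. At the low end, HF mouse 1 was lowest in 24 of 57 probe sets and HF+P mouse 1 in 36, against 16.5% and 15.9% of all probe sets. The labels give no meaning to the numbers.

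**Figure D4:**
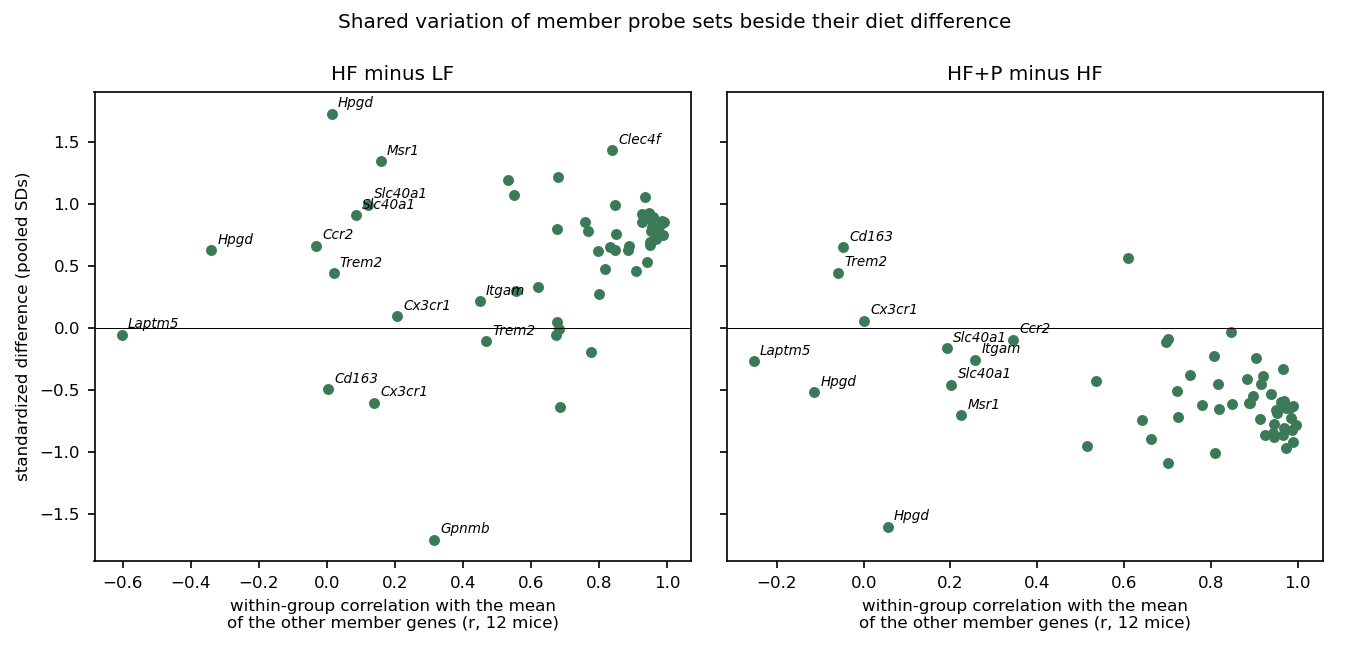
Correlation of each member probe set with the mean of the other member genes, after removing group means (Pearson r over 12 mice), against its standardized difference in pooled SDs, HF minus LF left and HF+P minus HF right. Probe sets that vary together form a dense cluster with r near 1 and similar differences, while Hpgd, Gpnmb, Slc40a1, Cd163, Ccr2 and Trem2 lie away from it.

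Much of the set varied together from mouse to mouse. After group means were removed, the correlation of a probe set with the mean of the other member genes had a median of 0.799 over the 12 LF and HF mice and 0.849 over the HF and HF+P mice, and exceeded 0.9 in 20 and 24 of 57. These mice share 1 array each and 1 joint processing, and without both mice numbered 3 the medians were 0.616 and 0.725, so the r values are given as a description only. The tightest followers in LF and HF were Tyrobp (0.989), the brightest Laptm5 probe set (0.988), Cd5l (0.984) and Aif1 (0.980), a mix of signalling adaptor, lysosomal, secreted and cytoskeletal proteins. The C1q probe sets lay between 0.925 and 0.965. Those that did not follow numbered 14 with r under 0.5 in LF and HF, and 11 in HF and HF+P. Among them were Hpgd (0.0142 on the brighter probe set), Slc40a1 (0.120), Cd163 (0.00246), the brightest Ccr2 probe set (-0.0314), Trem2 (0.467 and 0.0191) and the brighter Gpnmb probe set (0.314), while the other Gpnmb probe set had r = 0.796. For 55 of the 57 probe sets the 6 HF arrays kept their order closely between the separately processed value sets, with r above 0.9 and a median of 0.998, against 0.952 over all probe sets. The exceptions were the dimmer Cx3cr1 probe set (0.418) and the brighter Gpnmb probe set (0.811).

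Other genes of the macrophage pathways were read on the brightest probe set of each gene. In HF against LF, 0 of 16 growth factors and chemoattractants passed and 14 lay above 0 (median 0.647). Csf1, the ligand of Csf1r, gave 0.892, its second ligand Il34 0.0601, and Ccl2, the ligand of Ccr2, 0.988, with adjusted p of 0.516, 0.981 and 0.464. Of 16 cytokines and mediators 0 passed and 13 lay above 0 (median 0.627), with Il18 at 1.89 (adjusted p = 0.135), Il1b at 0.891 and Tnf at 0.282. Of 9 Fc and complement receptors 0 passed and 8 lay above 0 (median 0.934), led by Itgax, the integrin CD11c, at 1.95 (adjusted p = 0.122). Of 13 macrophage transcription factors 0 passed and 8 lay above 0 (median 0.360), with the oxysterol receptor Nr1h3 at 0.360. Of 17 lysosomal and lipid-handling genes 1 passed, downward, and 10 lay above 0 (median 0.196). After quantile normalisation the medians of the chemoattractant, cytokine and transcription factor lists were -0.44, -0.67 and -0.31, beside -0.73 over all probe sets. After centring they were -2.29, -2.15 and -0.72 and that of the lysosomal list -2.21, beside -2.72 over all. The Fc and complement receptors stood at 0.0370 and 0.0694. The gene that passed was Lipa, lysosomal acid lipase, whose deposited values were lower in HF. LF mice ran from -1.07 to 2.12 and HF mice from -5.45 to -3.29, without overlap. Lipa fell by 4.11 pooled SDs (-6.14 to -2.03; adjusted p = 0.00632), a gene that hepatocytes also express. With the replicate number as a block the call was lost (-3.03; adjusted p = 0.0694). After quantile normalisation all arrays but 1 are tied for Lipa, so the lower HF values are not seen in that setting. Of the same list Cd9, a tetraspanin, gave -2.35 (adjusted p = 0.0711). Spp1, osteopontin, had no probe set with it as the only symbol. In HF+P against HF, 0 genes of these 5 lists passed, and the list medians lay between -0.452 and -0.0390. After centring those of the chemoattractants, cytokines and transcription factors were 0.163, 0.243 and 0.176, beside a median of 0.52 over all probe sets and 86.2% above 0. Csf1 gave -0.227, Ccl2 -0.556, Il1b -0.477, Tnf -0.487, Nr1h3 0.298, Il34 1.16 and Lipa -0.578.

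**Figure D5:**
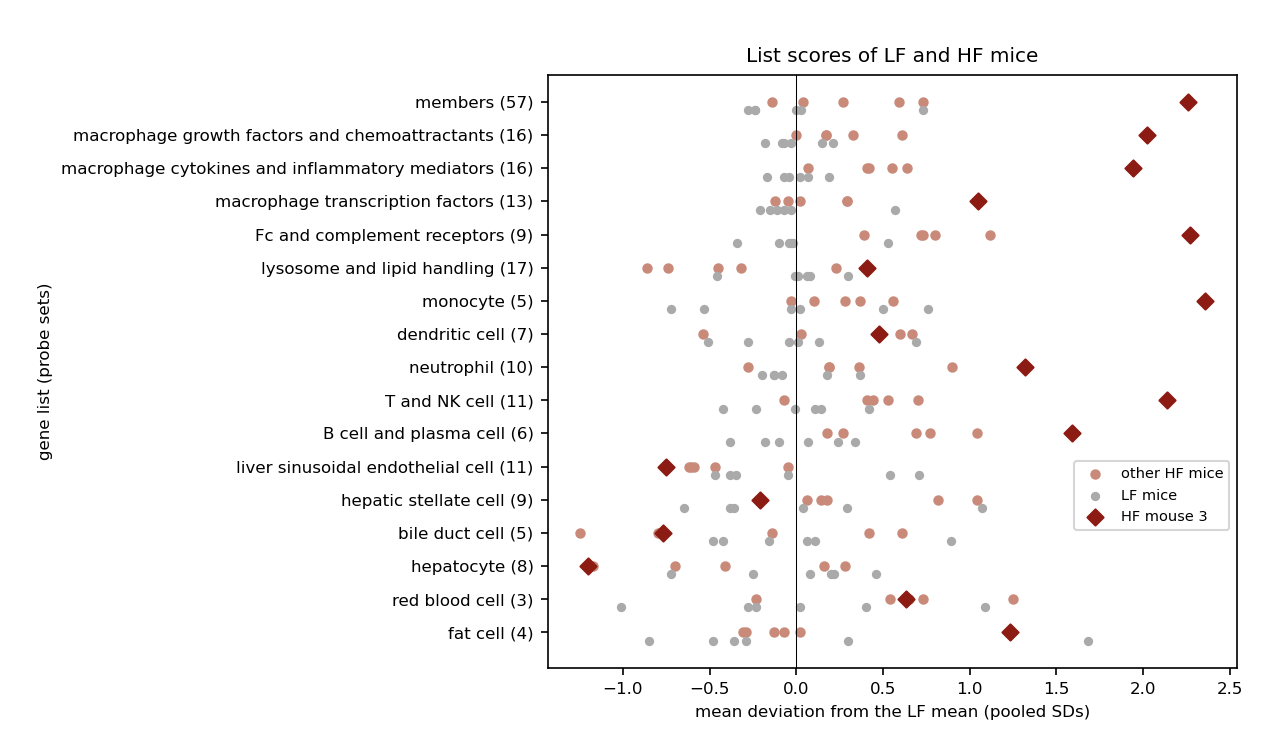
Mean deviation from the LF mean over each gene list, in pooled SDs, for LF mice, HF mouse 3 (diamond) and the other HF mice; the number of probe sets is in parentheses. HF mouse 3 lies right of the other HF mice for the members and for monocyte, T and NK cell, neutrophil, B cell and fat cell lists. It lies left of most for hepatocyte genes, in the values as deposited.

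Other cell types were read in the same way. In HF against LF, 4 of 5 monocyte genes lay above 0 (median 0.711), as did 11 of 11 T and NK cell genes (median 0.704). So did 5 of 6 B and plasma cell genes (median 0.720), beside a median of 0.668 over the 34 member genes. Of the sinusoidal endothelial genes, 8 of 11 lay below 0 (median -0.770). In HF+P against HF, 3 of 3 red blood cell genes lay below 0 (median -0.940), 5 of 7 dendritic cell genes (-0.529), 5 of 6 B and plasma cell genes (-0.380) and 7 of 11 T and NK cell genes (-0.314). These are signs on the deposited scale. After quantile normalisation the T and NK, and B and plasma cell medians of HF against LF were -0.702 and -0.975, beside -0.73 over all probe sets. In HF+P against HF the dendritic cell median turned to 0.331 after quantile normalisation and 0.198 after centring. The T and NK cell medians were then -0.00421 and 0.108, and those of B and plasma cells -0.0861 and 0.0996. Red blood cell genes stood at -0.0857 and -0.301, beside 0.0113 and 0.52 over all probe sets. HF mouse 3 stood high for markers of other cells too. Its score over 5 monocyte genes was 2.36, with the other HF mice from -0.03 to 0.56 and LF mice from -0.72 to 0.76. For 11 T and NK cell genes it was 2.14, with LF mice from -0.42 to 0.42, for 10 neutrophil genes 1.32, and for 6 B and plasma cell genes 1.59. Over 7 dendritic cell genes it was 0.48, below the highest HF mouse at 0.67. Over 4 fat cell genes it was 1.23, with the other HF mice at most at 0.02 and LF mouse 2 at 1.68, and over 3 red blood cell genes 0.63, with HF mouse 4 at 1.25. Over 8 hepatocyte genes it was -1.20, next to HF mouse 2 at -1.17, and over 11 sinusoidal endothelial genes -0.75, next to HF mice 1, 2 and 5 at -0.61, -0.62 and -0.59. Stellate and bile duct cell genes gave -0.21 and -0.77, within the range of the other mice. In that mouse 25 of the 34 members, 4 of 5 monocyte genes and 7 of 11 T and NK cell genes had their highest HF value. So did 3 of 10 neutrophil genes, 2 of 6 B and plasma cell genes and 1 of 7 dendritic cell genes. The count was 3 of 4 for fat cell genes, 1 of 8 for hepatocyte genes and 2 of 11 for endothelial genes. Over all probe sets the share was 18.4%. No gene of these 11 cell type lists passed the threshold in either comparison. The part of these cells in the differences of the macrophage markers was not tested.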

How the data were processed

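The deposited table holds log2 values of 24 columns; the base is inferred from their range. R 2.7.2 is named in the submitters' processing notes. How probes were summarised and normalised, and the log base, is not given in those notes or the labels. The HF arrays appear in 2 value sets, each used only within itself. The members and lists were chosen with earlier results of these data known. Of 45101 probe sets, 64 controls were left out. Probe sets took their gene from the platform annotation, which can be old: 34945 have 1 symbol, 932 several and 9160 none. Groups follow the labels. Each comparison was fitted on its 12 columns with limma 3.58.1 in R 4.3.3 (lmFit and eBayes, two-sided, Benjamini-Hochberg over 45037 probe sets, threshold 0.05). The fit was tried on simulated probe sets that varied independently and were shifted by more than any member difference here. That trial does not show whether differences of the size seen in the members would be detected. Single probe sets also had an exact two-sided permutation test over 924 assignments. A gene was read on its brightest probe set, by mean over the 24 columns. Values by mouse are given for the 5 genes with the largest difference per comparison and for 10 genes chosen by role. The labels do not say whether cages or litters were shared, so p-values measure only the spread between these mice. The number of arrays limits the precision. Alternatives were quantile normalisation, median centring, leaving out the probe sets dimmer than the median, 1 probe set per gene, trended and robust variance, array weights, a threshold of 0.10, a replicate block and leaving out each mouse. Deviations of mice with the same number correlated at -0.13 to 0.0976 for LF and HF and 0.0338 to 0.209 for HF and HF+P. Those of mice with different numbers correlated at -0.164 to 0.0839 and at -0.104 to 0.108. No same-number pair of LF and HF exceeded 0.1, and of those of HF and HF+P only mouse 8 did. The main fits did not use the numbers as pairs, and the check does not settle whether they pair mice. The check ran over all probe sets and not over the members alone.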

Additional observations from a re-analysis of the deposited data

Results flagged for a closer look

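In 12 of 72 groups of 6 tested, 1 mouse stood apart from the other 5 by Dixon's ratio, its gap to the nearest mouse divided by the whole range (critical value 0.625); chance gives about 1 in 20 for independent groups. These are not independent, since the same HF mice enter in both value sets and the genes vary together. Mouse 3 was the high one in most. In LF the ratio of mouse 3 was 0.692 for the mean over the members, 0.751 for Timd4, 0.824 for Adgre1, 0.66 for Aif1 and 0.793 for Marco. HF mouse 3 reached 0.636 for the mean over the members and 0.749 for Msr1, and in the value set with HF+P 0.642 and 0.907. LF mouse 3 was the low one for Ccr2, with 0.632. LF mouse 1 was low for Hpgd, with 0.676. HF+P mouse 7 was high for Trem2, with 0.751. The cause was not tested.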

How the results depend on the processing

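The median standardized difference of the members kept its sign under every alternative run, from 0.106 to 0.960 for HF against LF and from -0.804 to -0.344 for HF+P against HF. In HF against LF, quantile normalisation called 6766 probe sets (174 higher, 6592 lower). Of the member probe sets it called 2, a dimmer one of Cybb as higher and the dimmer one of Trem2 as lower. That Trem2 probe set turned from 0.445 to -1.74. Centring called 42369 probe sets (322 higher, 42047 lower) and 17 member probe sets. Of these, 2 were higher, of Clec4f and Hpgd, and 15 lower, with some genes counted more than once. Leaving out the probe sets dimmer than the median gave 568 calls, a threshold of 0.10 gave 861, leaving out 1 mouse 131 to 325, and leaving out both mice numbered 3 gave 103, with 0 members in each of these. In HF+P against HF, centring called 2, leaving out 1 mouse 0 to 2, and leaving out both mice numbered 3 called 0, with 0 members in each; at an unadjusted p below 0.05, 3125 probe sets passed on the deposited scale.

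Signs turned in HF against LF under quantile normalisation for Vsig4 (-0.389), Adgre1 (-0.594), Ccr2 (-1.18), Slc40a1 (-0.267), Fcer1g (-1.62) and Cx3cr1 (-1.37), under centring for Ccr2 (-2.67) and Cx3cr1 (-2.66), and without both mice numbered 3 for Cx3cr1 (-0.394). In HF+P against HF they turned under quantile normalisation for Clec4f (0.158), Vsig4 (0.0774), Ccr2 (0.558), Slc40a1 (0.637) and Cx3cr1 (0.101), under centring for Gpnmb (0.620) and Ccr2 (0.350), with array weights for Ccr2 (0.0573), and without both mice numbered 3 for Gpnmb (0.170). Under quantile normalisation Lipa in HF against LF and Hpgd in HF+P against HF stood at 0.533, the value that arises where 1 array stands apart and the rest are tied, so it shows no turn. In HF against LF the median of all probe sets was -0.73 after quantile normalisation and -2.72 after centring, and in HF+P against HF 0.52 after centring. Without single mice, in HF against LF Trem2 ran from -0.483 to 0.198, Cx3cr1 from -0.184 to 0.391 and Marco from -0.197 to 0.639; in HF+P against HF Gpnmb ran from -0.448 to 0.266, Ccr2 from -0.621 to 0.148, Msr1 from -0.691 to 0.0109 and Slc40a1 from -0.389 to 0.213. The turns in this paragraph were read on the brightest probe set of each gene, and their cause was not tested.

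With the replicate number as a block, 246 probe sets and 0 members passed in HF against LF (median of the members 0.889). At an unadjusted limma p below 0.05, 22 of the 57 member probe sets were higher there and 1 lower. Of all 45037 probe sets, 6026 reached that level in either direction. In HF+P against HF, 1 probe set and 0 members passed (median -0.690). In HF against LF the blocked limma fit gave 2.64 for C1qa (adjusted p = 0.0915) and 3.23 for Hpgd (adjusted p = 0.0614). It gave less than the main fit for Msr1 (0.961) and Slc40a1 (0.737). The block turned Slc40a1 to 0.287 in HF+P against HF and lost the call of Lipa in HF against LF (-3.03, adjusted p = 0.0694).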
